A study of Homo sapiens with 6 samples.

Results

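The BCL2 family was examined at the level of its transcripts in MOLT-4, a human cell line derived from T-ALL, the T-cell form of acute lymphoblastic leukemia. The 10 genes BCL2, BCL2L1, MCL1, BAX, BAK1, BID, BAD, BCL2L11, BBC3 and PMAIP1 were found by their symbols among the 60640 gene identifiers of the deposited tables, each on 1 row in every table. Polyadenylated RNA was sequenced from 3 wild type libraries, the control of the CRISPR knockout, and from 3 libraries labelled IK-KO, where CRISPR had been aimed at IKZF1, which encodes IKAROS. The cells of both groups were grown in the same medium without other treatment named in the labels. They were bought from a company as an edited line with its control, and the labels name neither a clone nor separate cultures, so differences between the lines that do not come from IKAROS cannot be told apart from effects of its loss, and the p-values measure only the spread between these libraries. IKZF1 RNA itself was higher in the edited group, at 207, 260 and 207 FPKM (fragments per kilobase of transcript, scaled to the number of mapped fragments) against 134, 124 and 105 FPKM in wild type. The RNA level does not show whether the protein was lost. The methods of the study state that the knockout was checked by PCR and by western blot, which were not analysed here. All 13 T-lineage markers examined had a mean of at least 1 FPKM over the 6 libraries, but they differed between the groups in both directions. In the libraries labelled IK-KO, 6 of them (CD4, CD5, CD7, CD8A, RAG1 and TRAC) were lower without overlap, 5 (CD1A, CD247, CD3D, CD3G and PTCRA) were higher without overlap, and CD3E and LCK overlapped. RAG1 ran from 53.7 to 60.8 FPKM in wild type and from 15.0 to 17.8 FPKM in the other group, CD4 from 2.57 to 2.91 and from 0.254 to 0.479 FPKM, and CD247 from 65.0 to 66.6 and from 232 to 262 FPKM. The sum over all 13 markers was between 1385 and 1449 FPKM in wild type and between 1638 and 1833 FPKM in the other group. CD3D and CD3E were its largest parts. The part of these shifts in the results was not tested. None of the 18 B-lineage, myeloid, erythroid and fibroblast markers reached a mean of 1 FPKM, and the sum over each cell type stayed at or below 2.24 FPKM in every library. Judged from the confidence bounds of genes with a single transcript, 1 FPKM over 1 kilobase rested on between 16.2 and 19.7 fragments per library.

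BCL2 family proteins decide whether the outer membrane of the mitochondrion stays closed. BAX and BAK are the effectors that form pores in it, BCL2, BCL-XL (the product of BCL2L1) and MCL1 hold the effectors in check, and the BH3-only proteins BIM (BCL2L11), BID, BAD, PUMA (BBC3) and NOXA (PMAIP1) start the process by binding the guards or the effectors. In the T lineage, immature thymocytes lean on BCL-XL and mature T cells on BCL2, MCL1 is needed at many stages, and BIM drives the deletion of self-reactive thymocytes. These proteins are also regulated after transcription, by splicing, cleavage, phosphorylation and degradation, none of which gene-level FPKM can show.

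The data show small shifts in this family. BCL2L1 and BAX rose, by 22.8% and 21.1% in mean FPKM, and no member fell by the same test. In bulk RNA, a change in the cells that express a gene cannot be told apart from a change in RNA per cell. A gene was called when its limma adjusted p was under 0.05 over all 12652 genes with a mean of at least 1 FPKM, a filter that all 10 members passed. By this rule 2 of the 10 members were called, both higher in the libraries labelled IK-KO, where 19.9% of all tested genes were called and 10.1% were called higher and 9.75% lower, so the share of members called lay near the background. Neither call was stable, since that of BCL2L1 was lost in 5 of 14 alternative fits and that of BAX in 8. The values of the groups did not overlap in 7 members, each higher in the libraries labelled IK-KO, where 20.9% of all tested genes were apart in that direction, 18.1% in the other and 39.0% in either. At an unadjusted p under 0.05 there were 6 members, against 33.4% of all tested genes. The median log2 change of the 10 members was 0.23, beside 0.02 over all tested genes, and their median absolute change was 0.27, beside 0.18 over all tested genes and 0.52 over the called ones. All changes are on the scale of log2(FPKM + 1), IK-KO minus wild type, on which low genes appear to change less than they do.

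**Figure D1:**
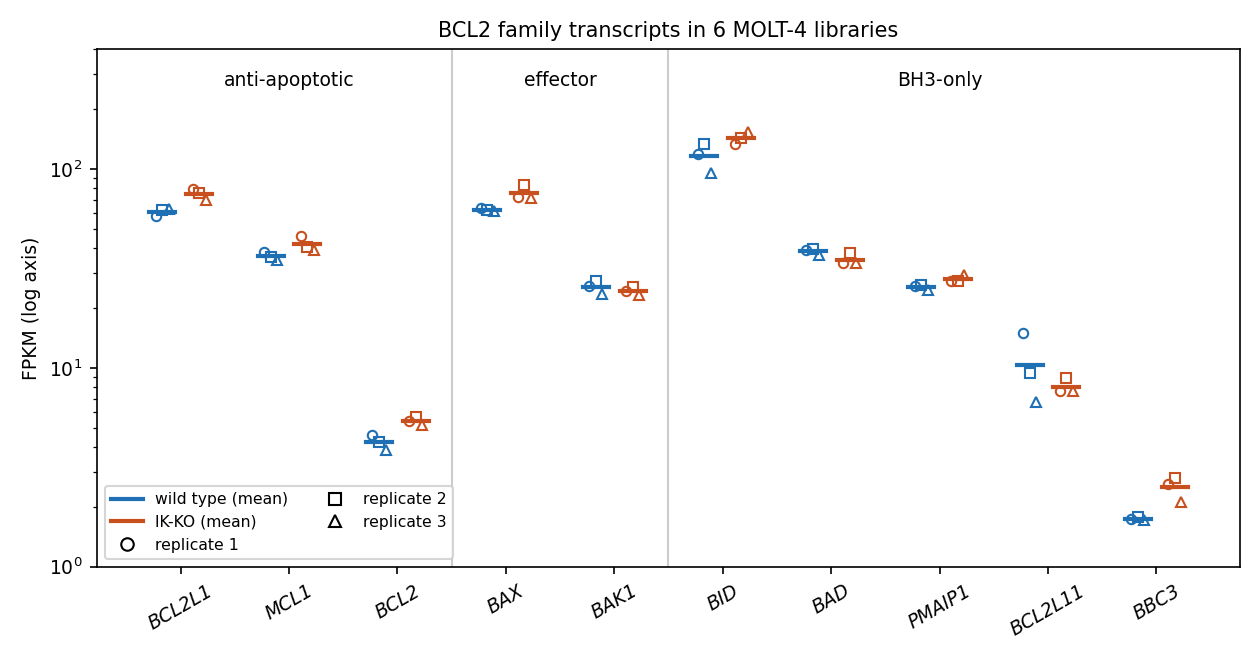
FPKM of the 10 members (log axis) in the 6 libraries, grouped by role, with wild type in blue, IK-KO in orange, the replicate given by the marker and the group mean by a bar. The levels run from about 1.74 FPKM for BBC3 to 143 FPKM for BID, and the distance between members is far greater than that between the groups.

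The order of the levels, which FPKM allows because it is scaled by length, was nearly the same in both groups. In wild type the highest mean was that of BID at 116 FPKM, followed by BAX at 62.5, BCL2L1 at 60.9, BAD at 38.6, MCL1 at 36.5, BAK1 and PMAIP1 at 25.6 each, BCL2L11 at 10.4, BCL2 at 4.23 and BBC3 at 1.74 FPKM. Neighbours in this order had overlapping values for BAX and BCL2L1, for BAD and MCL1, and for BAK1 and PMAIP1, so these pairs are not ranked. In the libraries labelled IK-KO, MCL1 stood above BAD and PMAIP1 above BAK1 without overlap, and BAX and BCL2L1 still overlapped. BCL2L1 thus gave most of the anti-apoptotic transcript, between 57.4% and 61.7% of the summed FPKM of BCL2L1, MCL1 and BCL2 in wild type and between 60.5% and 62.0% in the libraries labelled IK-KO. BCL2 gave between 3.81% and 4.63% of that sum over all 6 libraries.

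Promoter sequences from RefSeq (GRCh38.p14) were matched for 9 of the 10 members, all but MCL1, and searched on both strands in the 250 bases before the start. The letters were TGGGAA, a core bound by IKAROS, and the palindrome CACGTG, an E-box bound by MYC with MAX and by related factors. The pair can overlap by 2 letters. TGGGAA occurred in 3 of 15 windows, in BAK1 and in BID, whose 5 windows overlap each other, against 20.8% of all 35116 windows. CACGTG occurred in 4 of 15, in BAX, BBC3 and BID, against 6.34% of all windows. BAX, the member with the most, had 4 matches of it, and 0.0797% of all windows had 3 or more, which is a share and not a test. A match is only a string of letters in the window, not a site of binding. The stretches of these windows outside the annotated gene are shown for the called members, BCL2L1 and BAX, with CACGTG in capitals, of which 2 of the 4 copies of BAX lie in the part shown.
BCL2L1 (chr20:31723990-31724213, minus strand): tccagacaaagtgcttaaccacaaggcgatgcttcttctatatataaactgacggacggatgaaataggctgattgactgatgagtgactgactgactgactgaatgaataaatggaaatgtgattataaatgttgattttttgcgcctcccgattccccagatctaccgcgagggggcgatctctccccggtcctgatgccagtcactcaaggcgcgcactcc
BAX (chr19:48954625-48954814, plus strand): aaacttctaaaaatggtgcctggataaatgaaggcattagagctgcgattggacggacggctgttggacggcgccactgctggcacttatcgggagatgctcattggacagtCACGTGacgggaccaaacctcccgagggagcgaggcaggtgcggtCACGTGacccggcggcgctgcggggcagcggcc
The stretch of BCL2L1 holds neither string, and 47.8% of its bases are G or C, against 61.1% in that of BAX. MYC itself measured 191, 188 and 171 FPKM in the wild type replicates and 175, 172 and 170 FPKM in the IK-KO replicates, with a change that was not called (limma adjusted p 0.317).

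Of the anti-apoptotic genes, BCL2L1 (ENSG00000171552.13, chromosome 20, 31664452 to 31723989, minus strand, GRCh38) encodes BCL-XL, and its shorter splice form BCL-XS, which promotes death, is counted in the same value. BCL2L1 measured 57.7, 62.4 and 62.7 FPKM in wild type replicates 1 to 3 and 79.1, 75.3 and 70.0 FPKM in IK-KO replicates 1 to 3, an order kept below. Every library labelled IK-KO lay above every wild type library. The mean rose from 60.9 ± 2.78 to 74.8 ± 4.55 FPKM (SD, n = 3). In log2 terms this was 0.29 (SE 0.06, 95% confidence interval 0.14 to 0.44), with a limma adjusted p of 0.0195. The call rests on few libraries, since it was lost, among other alternatives, without replicate 1 of wild type and without replicates 1 or 2 of IK-KO (limma adjusted p 0.0653, 0.0651 and 0.0628) and, by a narrow margin, when no filter on low values was used (0.0504). The change itself stayed between 0.25 and 0.34 in all 14 alternatives. Next to it, ID1 rose from 34.7 to 116 FPKM, while ABALON, an antisense transcript that overlaps an exon of BCL2L1 and is hard to separate from it without strand, was at 1.97 and 2.32 FPKM.

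MCL1 (ENSG00000143384.13, chromosome 1, 150574551 to 150579738, minus strand) encodes a guard protein that is rapidly made and degraded. MCL1 measured 38.2, 36.2 and 35.0 FPKM in the wild type replicates and 46.2, 40.6 and 39.3 FPKM in the IK-KO replicates. The groups were apart, by a small gap between 38.2 and 39.3 FPKM. The log2 change of 0.20 (SE 0.08, 95% confidence interval 0.02 to 0.37) did not pass the threshold (limma adjusted p 0.116) in this or any alternative fit. Its neighbours on chromosome 1 were shifted too, by a median of 0.10, and with this removed the change was 0.10. Without IK-KO replicate 1, the highest library, it was 0.13.

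BCL2 (ENSG00000171791.13, chromosome 18, 63123346 to 63320128, minus strand), the founding member of the family, measured 4.60, 4.22 and 3.87 FPKM in the wild type replicates and 5.41, 5.63 and 5.18 FPKM in the IK-KO replicates. All 3 values of the second group exceeded all 3 of the first. The mean was 4.23 ± 0.366 and 5.41 ± 0.223 FPKM (SD, n = 3). The difference of 0.30 on the log2 scale (SE 0.10, 95% confidence interval 0.06 to 0.53) was not called (limma adjusted p 0.0872). It was called only when the mean-variance trend was left out of the fit (adjusted p 0.0489, range over its alternatives 0.0489 to 0.210).

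Of the effectors, BAX (ENSG00000087088.20, chromosome 19, 48954815 to 48961798, plus strand) rose. BAX measured 63.8, 62.5 and 61.2 FPKM in the wild type replicates and 72.6, 83.4 and 71.1 FPKM in the IK-KO replicates, so the groups were apart and the spread was wider in the second. The mean rose from 62.5 ± 1.34 to 75.7 ± 6.71 FPKM (SD, n = 3). In log2 terms this was 0.27 (SE 0.07, 95% confidence interval 0.10 to 0.43), with a limma adjusted p of 0.0358. Among the alternatives, this call was lost in the 3 fits that each left out a wild type library and in those without replicate 1 or replicate 2 of IK-KO (limma adjusted p from 0.0630 to 0.0894), without the filter on low values (0.0892) and without the mean-variance trend (0.0749). The change was lowest, at 0.20, without IK-KO replicate 2. Its neighbour FTL, which encodes the ferritin light chain, rose by 0.35 on the log2 scale, and NUCB1 on the other side had a change of 0.13 (limma adjusted p 0.591).

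BAK1 (ENSG00000030110.13, chromosome 6, 33572547 to 33580293, minus strand), the other effector, measured 25.9, 27.2 and 23.6 FPKM in the wild type replicates and 24.5, 25.6 and 23.3 FPKM in the IK-KO replicates. The groups overlapped, and the log2 change of −0.06 (SE 0.07, 95% confidence interval −0.24 to 0.11) was not called (limma adjusted p 0.610). Chromosome 6 as a whole was shifted, with a median log2 change of 0.21 over 655 tested genes, and the genes nearest to BAK1 had a median of 0.23. With the median change of these neighbours subtracted as a fixed value, BAK1 was lower, at −0.29 (limma adjusted p 0.0404, range over its alternatives 0.0404 to 0.910). That p leaves out the error of the median itself, and no other alternative called BAK1. The difference between the changes of BAX and BAK1 was not tested. An exon of GGNBP1 overlaps BAK1 on the other strand.

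**Figure D2:**
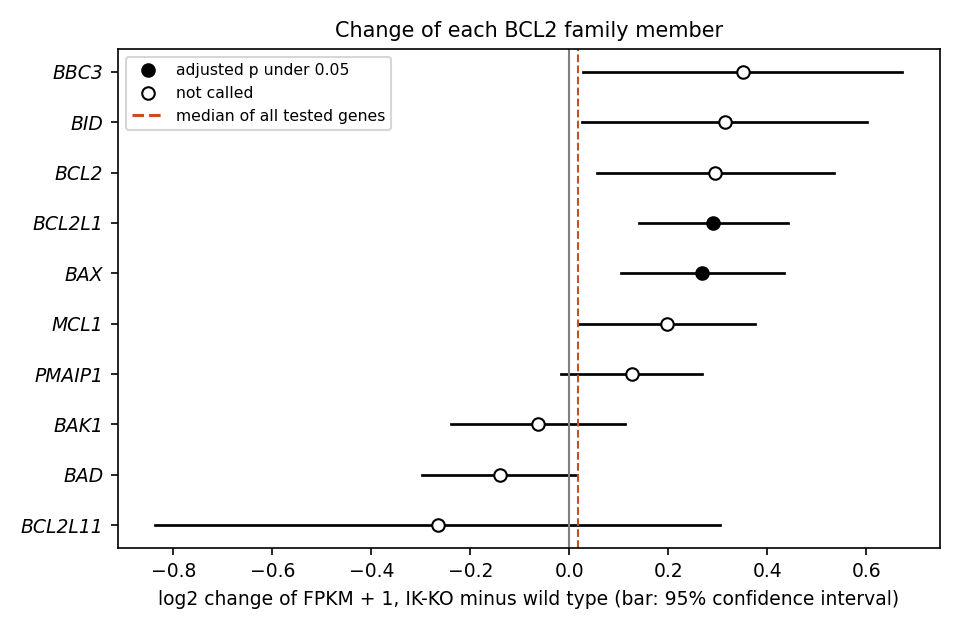
Log2 change of each member (point) with its 95% confidence interval (bar), IK-KO minus wild type, filled where the adjusted p was under 0.05, with the median change of all tested genes as a dashed line. BCL2L1 and BAX are called at 0.29 and 0.27, whereas BBC3 and BID have larger changes with wider intervals.

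The BH3-only genes were mixed, and none of the 5 was called. BID (ENSG00000015475.18, chromosome 22, 17734138 to 17774770, minus strand) links death receptors to mitochondria once caspase-8 has cleaved its product. BID measured 120, 134 and 94.985 FPKM in the wild type replicates and 133.8, 143 and 153 FPKM in the IK-KO replicates. Wild type replicate 3 was far below the other libraries, and the groups were apart by only 133.6 against 133.8 FPKM. The log2 change was 0.31 (SE 0.12, 95% confidence interval 0.03 to 0.60, limma adjusted p 0.121). It was 0.18 without wild type replicate 3 and 0.42 without wild type replicate 2, uncalled in both.

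BCL2L11 (ENSG00000153094.23, chromosome 2, 111119378 to 111168445, plus strand) encodes BIM, which glucocorticoids induce in lymphoid leukemia cells. BCL2L11 measured 14.9, 9.38 and 6.75 FPKM in the wild type replicates and 7.63, 8.89 and 7.65 FPKM in the IK-KO replicates. The wild type libraries ran from below to above all those labelled IK-KO. The 14.9 FPKM of wild type replicate 1 is poorly determined, with deposited bounds of 0.943 and 28.9 FPKM, or 93.7% of the value to each side, whereas the narrowest bounds of this gene lay 16.96% to each side. With that library the log2 change was −0.27 (SE 0.24, 95% confidence interval −0.84 to 0.30, limma adjusted p 0.493), and without it 0.01 (limma adjusted p 0.975).

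BAD (ENSG00000002330.13, chromosome 11, 64269830 to 64284704, minus strand), whose product is held by 14-3-3 proteins when phosphorylated, measured 39.3, 39.4 and 37.1 FPKM in the wild type replicates and 33.7, 37.7 and 33.5 FPKM in the IK-KO replicates. Only IK-KO replicate 2 reached the wild type range. The log2 change was −0.14 (SE 0.07, 95% confidence interval −0.30 to 0.02, limma adjusted p 0.189), negative in all 14 alternatives and called in none. In GENCODE release 44, GPR137 overlaps an exon of BAD on the other strand, as MIR4435-2HG does of BCL2L11. Exons of MCL1, which is longer in that release than at its deposited position, overlap ADAMTSL4 and ADAMTSL4-AS1, the latter on the strand of MCL1. Those of BBC3 overlap MIR3190 and MIR3191, the latter on the strand of BBC3.

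BBC3 and PMAIP1 were higher in every library labelled IK-KO than in any wild type library, without passing the test. BBC3 (ENSG00000105327.17, chromosome 19, 47220822 to 47232766, minus strand) measured 1.73, 1.78 and 1.72 FPKM in the wild type replicates and 2.62, 2.80 and 2.11 FPKM in the IK-KO replicates, the largest difference among the members, 43.9% in mean FPKM. Its bounds lay between 23.6% and 31.0% to each side in single libraries, so the spread of the wild type values is smaller than their own counting precision. The log2 change was 0.35 (SE 0.14, 95% confidence interval 0.03 to 0.67, limma adjusted p 0.123) and became 0.49 with a pseudocount of 0.1. Leaving out the mean-variance trend called it (adjusted p 0.0473, range over its alternatives 0.0473 to 0.291). PMAIP1 (ENSG00000141682.11, chromosome 18, 59899948 to 59904306, plus strand), whose product binds MCL1, measured 25.9, 26.1 and 24.7 FPKM in the wild type replicates and 27.2, 27.5 and 29.3 FPKM in the IK-KO replicates. Its log2 change of 0.13 (SE 0.06, 95% confidence interval −0.02 to 0.27) was not called (limma adjusted p 0.196).

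**Figure D3:**
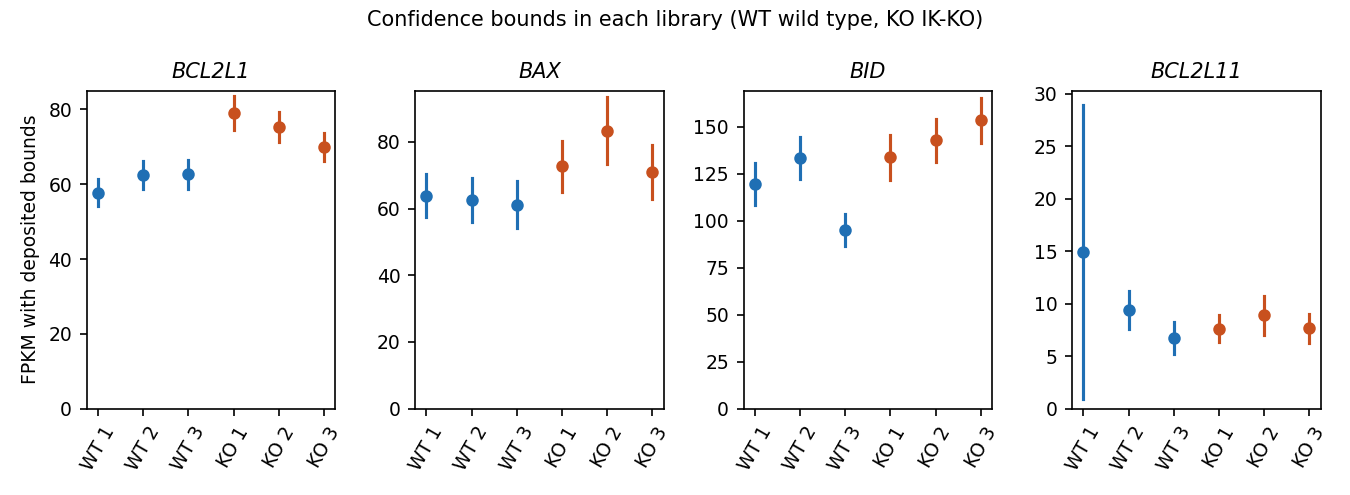
FPKM with the deposited lower and upper confidence bounds in each library for BCL2L1, BAX, BID and BCL2L11 (axes from 0, each panel with its own scale). BCL2L1 has the narrowest bounds of the 4 genes, wild type replicate 3 is low in BID, and wild type replicate 1 of BCL2L11 spans 0.943 to 28.9 FPKM.

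The confidence bounds give a second view of precision within each library. In none of the 10 members did the bounds of all libraries of one group lie apart from those of the other, against 9.34% of 12613 genes tested and listed on a single row. BCL2L1 came closest, with a highest wild type upper bound of 66.6 FPKM and a lowest lower bound of 66.3 FPKM in the IK-KO group. For BAX these were 70.2 and 63.0 FPKM, and for BCL2 5.11 and 4.71 FPKM. The bounds were narrowest for BCL2L1 and MCL1, from 5.25% to 6.30% and from 5.59% to 5.99% to each side.

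The balance between guards and killers was described by sums over the members, which get no test. The anti-apoptotic sum was 101, 103 and 102 FPKM in wild type and 131, 122 and 115 FPKM in the IK-KO group, and the effector sum 89.80, 89.76 and 84.8 against 97.1, 109 and 94.3 FPKM. Both sums were higher in every library labelled IK-KO. In the effector sum only BAX was higher, while BAK1 overlapped between the groups. The BH3-only sum, of which BID was the main part, overlapped, at 201, 210.2 and 165 and 205, 219.6 and 226 FPKM. The ratio of the anti-apoptotic to the pro-apoptotic sum also overlapped, at 0.345, 0.343 and 0.406 in wild type and 0.433, 0.370 and 0.358 in the other group, with means of 0.365 ± 0.0359 and 0.387 ± 0.0403 (SD, n = 3). The difference of the mean log2 ratio was 0.08 with all libraries and 0.00039 without IK-KO replicate 1, and 0.16 without wild type replicate 3. It was 0.12 with MCL1 left out of the sum and 0.11 with BAX left out.

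Single pairs were followed in the same way. The ratio of BCL2L1 to BAX averaged 0.976 ± 0.0633 in wild type and 0.993 ± 0.0932 in IK-KO (SD, n = 3), with overlapping values. That of MCL1 to its binding partner PMAIP1 averaged 1.43 ± 0.0434 and 1.51 ± 0.178 (SD, n = 3) and overlapped as well. The ratio of BCL2 to BCL2L11 was 0.308, 0.450 and 0.573 in wild type and 0.709, 0.634 and 0.678 in the IK-KO group, without overlap. The lowest of these values is that of wild type replicate 1, in which BCL2L11 is poorly determined. Without this library the groups stay apart, but the gap between 0.573 and 0.634 is small. In wild type replicate 3, at 0.573, the bounds of BCL2L11 lay 22.1% to each side.

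**Figure D4:**
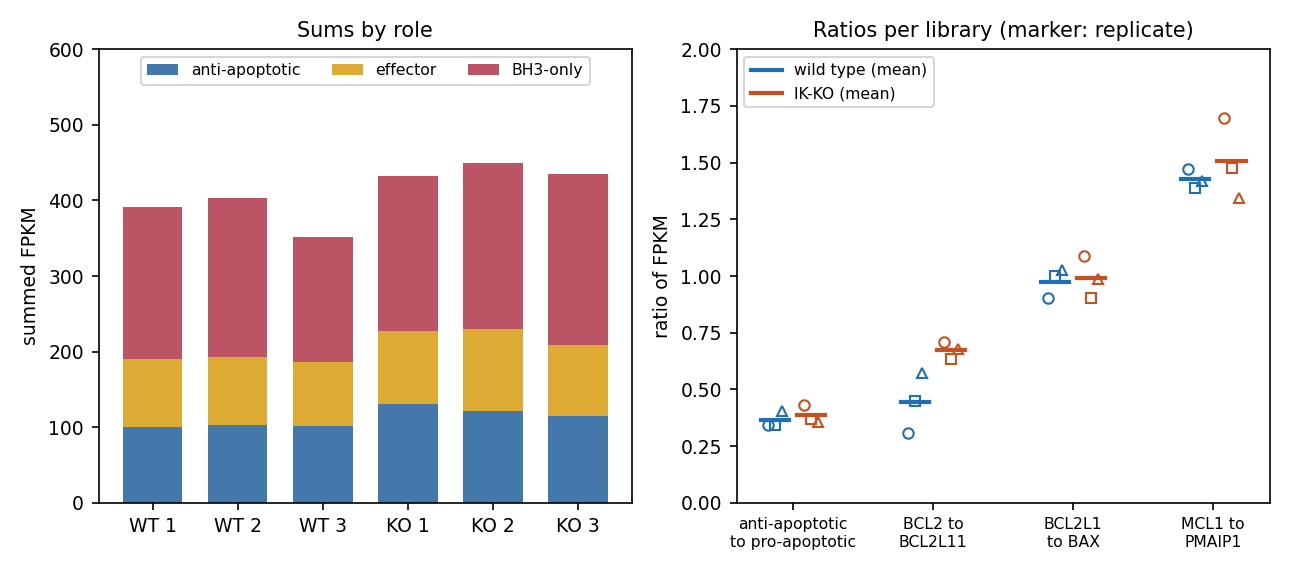
Left, summed FPKM of the 3 anti-apoptotic, 2 effector and 5 BH3-only members in each library (WT wild type, KO IK-KO). Right, ratios of FPKM per library with group means as bars, in which the ratio of anti-apoptotic to pro-apoptotic sums overlaps between the groups and that of BCL2 to BCL2L11 does not.

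**Figure D5:**
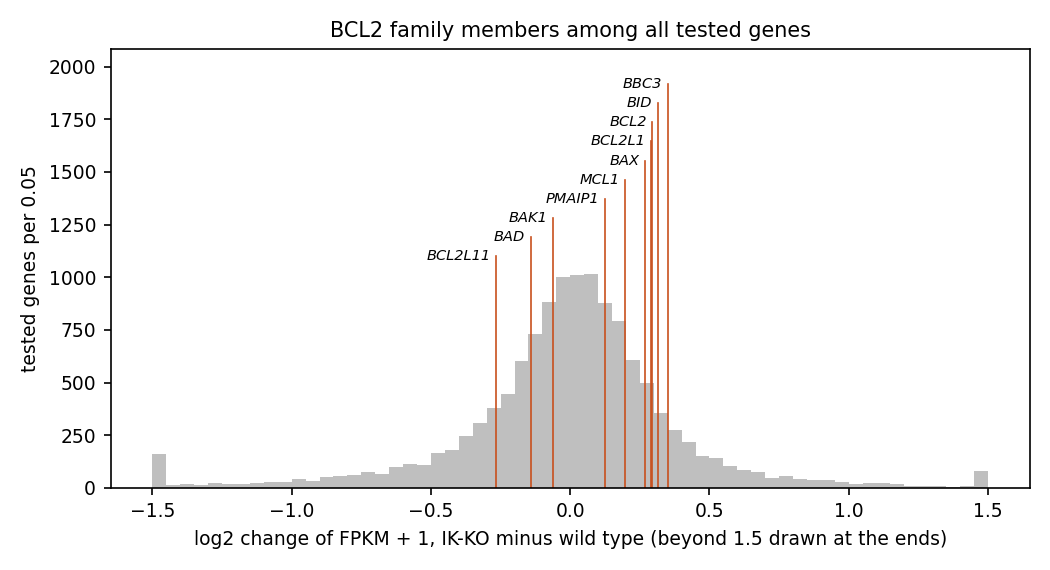
Histogram of the log2 change of all 12652 tested genes (bins of 0.05, changes beyond 1.5 drawn at the ends), with the 10 members marked. The members lie between −0.27 and 0.35, inside the bulk of the distribution.

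In the distribution of all changes, BBC3, the member with the largest absolute change, exceeded 75.1% of the tested genes in size, BCL2L1 68.6% and BAX 65.6%. BAK1 exceeded 19.9%. The genes whose values over the 6 libraries were most like those of BBC3, by the root mean square difference of centred log2(FPKM + 1), were ZBTB9 (0.03), GAMT (0.04) and the ribosomal pseudogene RPLP0P6 (0.04), the last with a near-identical parent gene and so uncertain.

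Other genes of the pathway were taken from 5 lists, and their counts are read beside the 19.9% of all tested genes called. The remaining BCL2 family was taken broadly, with the BNIP genes counted in. This list had 15 genes, of which 8 were tested, 1 was called lower and 7 were not called, with a median log2 change of −0.11. The other 7 (BCL2L2, BCL2A1, BCL2L10, BCL2L14, BCL2L15, BOK and HRK) had a mean under 1 FPKM, so in these cells the guards BCL-W and BFL-1, the products of BCL2L2 and BCL2A1, were at most at 0.825 and 0.357 FPKM in any library. BNIP3, which acts in the removal of mitochondria, fell from 6.79 ± 0.268 to 4.21 ± 1.11 FPKM (SD, n = 3), or by 0.60 on the log2 scale (SE 0.16) at a limma adjusted p of 0.0366, but was not called in 5 of the 6 fits that each left out a library (all but that without IK-KO replicate 2). The BH3-only gene BIK was at 4.53, 5.06 and 4.58 against 3.68, 2.52 and 4.16 FPKM, a change of −0.38 that was not called (limma adjusted p 0.144). BMF, another BH3-only gene, ranged from 0.891 to 2.88 FPKM in wild type and from 1.29 to 2.71 FPKM in the IK-KO group, and BCL2L12, BCL2L13, BNIP1, BNIP2 and BNIP3L had changes between −0.20 and 0.13 that were not called.

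Downstream of the pore, 2 of 21 caspases, apoptosome genes, channels and inhibitors were called, 1 in each direction, with a median of 0.03. VDAC1, a channel of the outer membrane, rose from 118 ± 1.18 to 137 ± 2.46 FPKM (SD, n = 3), and BIRC3, an inhibitor of apoptosis, fell from 4.90 ± 0.439 to 3.23 ± 0.397 FPKM (SD, n = 3). Without wild type replicate 1 neither was called (limma adjusted p 0.0504 and 0.0961), and of the remaining 5 fits that each left out a library only that without IK-KO replicate 1 called BIRC3. Cytochrome c (CYCS) and the caspase activator APAF1 were not called, at 103 and 102 and at 4.35 and 3.85 FPKM in wild type and in the IK-KO group.

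Of 12 death receptor pathway genes 10 were tested and 3 called, 1 upward and 2 downward, with a median of −0.11, and these calls held in all 14 alternatives. TNFSF10, the gene of the death ligand TRAIL, measured 2.13, 2.40 and 2.17 FPKM in the wild type replicates and 0.287, 0.222 and 0.248 FPKM in the IK-KO replicates, or −1.37 in log2 (SE 0.15) at a limma adjusted p of 0.00135, and −2.73 with a pseudocount of 0.1. CASP10, an initiator caspase, fell from 15.5 ± 0.646 to 10.0 ± 0.382 FPKM (SD, n = 3), a change of −0.59 (limma adjusted p 0.00199). TNFRSF1A, the receptor of TNF, rose from 28.6 ± 2.26 to 39.1 ± 3.004 FPKM (SD, n = 3). CASP8, whose product cleaves BID, was at 21.7 ± 0.598 and 26.0 ± 4.01 FPKM (SD, n = 3) and was not called (limma adjusted p 0.172).

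Of 22 genes that act on BCL2 family proteins 21 were tested, with 2 calls upward, 1 downward and a median of 0.04. DYNLL2, a dynein light chain that binds BMF, rose from 21.3 ± 1.002 to 27.1 ± 1.09 FPKM, TPT1, whose product stabilises MCL1, from 2143 ± 35.4 to 2617 ± 89.2 FPKM, and PIM2, a kinase that phosphorylates BAD, fell from 3.95 ± 0.225 to 2.53 ± 0.423 FPKM (SD, n = 3). TPT1 has many near-identical copies in the genome and its value is uncertain. The PIM2 call was lost in 5 of the 6 fits that each left out a library (all but that without IK-KO replicate 2).

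The list of transcription regulators of BH3-only genes had the most calls, but it also held genes of other function. Of 17 genes 15 were tested and 6 called, 5 upward and 1 downward, with a median of 0.25. CDKN1A, which is not such a regulator, is among the upward calls. TP73, which can induce PUMA, rose from 1.21 ± 0.135 to 2.68 ± 0.227 FPKM (SD, n = 3), and CDKN1A, an inhibitor of the cell cycle, from 2.27 ± 0.325 to 5.16 ± 1.08 FPKM (SD, n = 3), on chromosome 6 beside neighbours with a median of 0.23. FOXO3, also on chromosome 6, and FOXO4, factors that can induce BIM and PUMA, rose by 0.46 and 0.72 on the log2 scale, the latter not called without IK-KO replicate 1 or 2. NR3C1, the glucocorticoid receptor, measured 7.92, 7.57 and 6.82 FPKM in the wild type replicates and 5.62, 4.35 and 5.65 FPKM in the IK-KO replicates. It fell by 0.45 on the log2 scale (SE 0.12, limma adjusted p 0.0395), a call that was lost in each of the 6 fits that left out a library. MDM2, a ubiquitin ligase, was at 37.1 ± 3.56 and 43.7 ± 1.13 FPKM (SD, n = 3) and was not called (limma adjusted p 0.0753). From the list of the death receptor pathway, the receptor FAS, at 9.55 and 8.23 FPKM, was not called either (limma adjusted p 0.161).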

How the data were processed

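Per the labels, polyadenylated RNA of MOLT-4 cells was sequenced in 3 wild type and 3 IK-KO libraries. The deposited values are gene-level FPKM, scaled by the authors for transcript length and library depth, each with its lower and upper bound of confidence, 1 table per library. The submitters' processing notes name STAR 2.6.1c, Cufflinks 2.2.1, HOMER 4.10 and hg38. The annotation and the strand setting are not given in the sources used here, so overlapping genes are uncertain, and no counts were at hand. Of 49784 identifiers shared with GENCODE release 44, 49771 lie at the same position on GRCh38. Rows of 1 identifier were summed, and 29 genes with a failed estimate in any library were left out.

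The 2 groups were compared by limma 3.58.1 (R 4.3.3) after taking log2(FPKM + 1), with a mean-variance trend. Two-sided p-values of the 12652 genes with a mean of at least 1 FPKM were adjusted by Benjamini and Hochberg, after the script was tested on simulated data. The members and lists were chosen with earlier results of these data known. Genes named are all members, every tested gene of the remaining family, and up to 5 called genes with the largest change per list, with the tested neighbours of called members and the 3 genes most like the member with the largest change. The uncalled list genes were named after their values were seen. Some genes counted in the lists are not reported here by name. The alternatives were a pseudocount of 0.1, no filter, 2 other scalings, failed estimates kept, neighbours' median change removed, the replicate block, no trend and each library left out. Summed levels and ratios received no test.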

Additional observations from a re-analysis of the deposited data

How the results depend on the processing

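The changes of the 10 members kept their sign in all 14 alternatives except that of BCL2L11, which lay between −0.51 and 0.010 when single libraries were left out, the latter without wild type replicate 1. The count of 2 called members became 0 without the filter on low values and lay between 0 and 2 when single libraries were left out, in each case by limma. It was 3 without the mean-variance trend (BCL2L1, BCL2 and BBC3) and 3 with neighbours' changes removed (BCL2L1, BAX and, lower, BAK1). Whether the numbers of the replicates pair the libraries could not be settled from these values. Across genes the residuals of libraries that share a number had weak correlations of 0.067, 0.025 and 0.005. Over all pairs of a wild type and an IK-KO library they ran from −0.088 to 0.067, and 3 of the 6 libraries correlated best with their own number. With the replicate block, 0 members (limma adjusted p 0.0632 for BCL2L1 and 0.0624 for BAX), 0 genes of the remaining BCL2 family and 1 of the caspase list were called, and 1805 of all genes. Without the block 2515 of all genes were called, and between 1720 and 2042 with single libraries left out. The remaining BCL2 family had 0 called genes without the filter, 2 with median-of-ratios size factors and from 0 to 1 with single libraries left out. The caspase list had 1 without the filter, 1 without the mean-variance trend and from 0 to 2 with single libraries left out. The other 3 lists stayed within 1.5 times their count. Uncalled changes near 0 changed sign. BCL2L13 (0.02) was at −0.0038 with libraries scaled to one FPKM sum, at −0.016 with neighbours' changes removed and from −0.043 to 0.13 with single libraries left out. BCL2L12 (−0.03) lay from −0.089 to 0.034 and BMF (0.09) from −0.16 to 0.36 in the latter. The causes were not tested. At this depth BBC3 and BCL2L11 are the least certain members.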
